A study of Mus musculus with 18 samples.

Results

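The 10 genes of prostaglandin synthesis, transport, breakdown and signalling were followed by RNA-seq in mouse epidermal cells with or without Zfp36. They were taken by name, 10 of 52636 genes in the deposited table of counts, and all 10 were found. Ptgs1, Ptgs2, Ptges, Ptges2 and Ptges3 encode enzymes of synthesis, Slco2a1 a prostaglandin uptake transporter, Hpgd the enzyme that starts breakdown, and Ptger2, Ptger3 and Ptger4 receptors of prostaglandin E2. The product of Zfp36, tristetraprolin (TTP), attaches to AU-rich elements in the 3′ untranslated regions (UTRs) of mRNAs and speeds their decay.

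Control mice carried loxP-flanked alleles (Zfp36 fl/fl), and Zfp36 ΔK14 littermates also carried a Cre transgene under the human keratin 14 promoter, all on a C57BL/6 background. Keratin 14 is a basal keratinocyte keratin, so the deletion was limited to cells that had expressed it and Zfp36 stayed intact in other cell types. Cells came from mock-treated skin of either genotype (Mock), from nontumoral skin beside the tumors of mice given DMBA and TPA (Treated), and from papillomas of the same protocol (Tumor). DMBA is a mutagen used to initiate tumors, while the phorbol ester TPA drives their outgrowth. The labels gave neither age nor sex and did not say whether replicates, or treated skin and tumors, came from separate mice. P-values therefore measure the spread between these libraries. The methods describe sorting for EpCAM and against CD45, CD140a and CD31, while the labels name whole skin as the source.

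Each of the 6 groups had 3 columns of counts. Mock ΔK14 replicates 2 and 3 held identical counts and were used once, which left 17 libraries with total counts of 2808550 to 9617985. Zfp36 was at 10.1 to 38.6 CPM (counts scaled to the size of the library) in ΔK14 libraries and at 152 to 716 CPM in fl/fl libraries, without overlap. Krt5 and Krt14, keratins of basal keratinocytes, were high in every library, from 1427 and 604 CPM upward. Ptprc, the gene of CD45, was at 1.51 CPM or less in every library, or 13 counts or fewer. Summed endothelial markers were at 8.62 to 39.0 CPM. Summed fibroblast markers were at 341 to 1320 CPM in mock and treated skin and at 25.1 to 293 CPM in tumors.

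Prostaglandins are made on demand from arachidonic acid, which phospholipases A2 release from membranes. Cyclooxygenases 1 and 2 convert it to prostaglandin H2, from which prostaglandin E synthases make prostaglandin E2, a lipid that acts on nearby cells through several receptors. Prostaglandin E2 is taken back into cells by a transporter and inactivated by a dehydrogenase. In mouse skin, cyclooxygenase 2 is an inducible enzyme long studied in tumor promotion, and its mRNA is a classic example of a short-lived transcript with AU-rich elements.

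The TTP-binding heptamer, written in DNA letters as TATTTAT, was searched on the transcript strand of the longest annotated 3′ UTR of each gene, with overlapping matches counted separately. Ptgs2 held 6 heptamers in 2445 bases, 3 of them overlapping in a single run that starts 15 bases after the stop codon. Ptger4 held 2 in 1233 bases, Hpgd 1 in 838 bases and Ptger2 1 in 1825 bases. No heptamer was present in Ptgs1, Ptges, Ptges2, Ptges3, Slco2a1 or Ptger3. Over 21006 genes, 27.6% held at least 1 heptamer and 0.852% held 5 or more. The longer motif TTATTTATT was present once in Ptgs2 and once in Ptger2, and in 7.66% of all genes. The nonamer contains the heptamer, and a match describes the sequence and not binding. The windows below show these sites because Ptgs2 is the enzyme gene with the largest tumor change and Ptger4 the receptor gene with the largest. All are 29 bases of GRCm38 from GENCODE M21 transcripts, 5′ to 3′ on the transcript strand, with the heptamers in capitals.
Ptgs2, chr1:150105790-150105818, plus strand: ctgaccaTATTTATTTATTTATgtgaaga
Ptgs2, chr1:150105827-150105855, plus strand: taattatttaaTATTTATactgaattttt
Ptgs2, chr1:150107196-150107224, plus strand: aaaaatattttTATTTATaattatatgga
Ptgs2, chr1:150107835-150107863, plus strand: aataatactgtTATTTATataaataacta
Ptger4, chr15:5234211-5234239, minus strand: ataatttaaggTATTTATgttcttctctg
Ptger4, chr15:5233907-5233935, minus strand: aacattacattTATTTATccagaaaactg
Hpgd, chr8:56320461-56320489, plus strand: ctcagaaaacaTATTTATaacagtgcctc
Ptger2, chr14:45002566-45002594, plus strand: tgttgtcagatTATTTATtctgtcttgtc

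**Figure D1:**
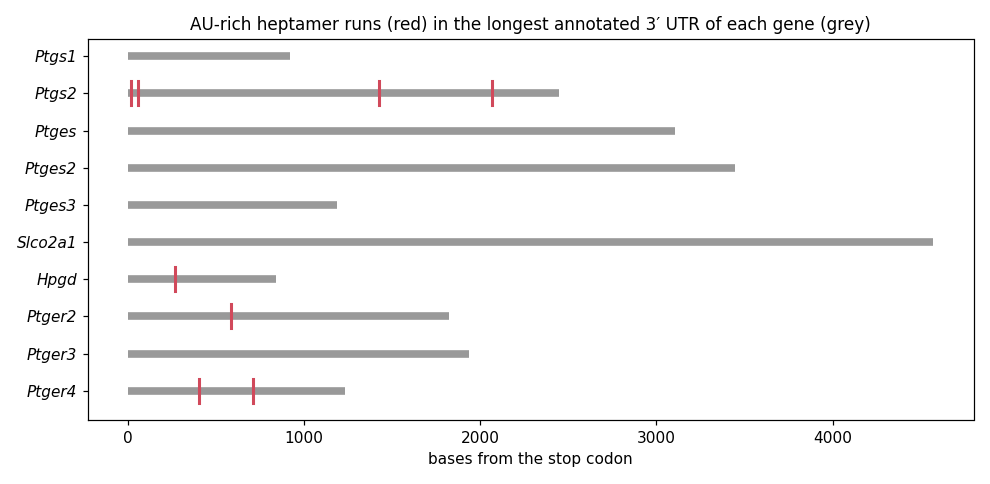
Position of TATTTAT runs (red) along the longest annotated 3′ UTR (grey) of each of the 10 genes, in bases from the stop codon. Ptgs2 carries 4 runs, of which the first lies 15 bases after the stop codon, while 6 of the genes carry none.

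Tumor cells of both genotypes had more Ptgs2 and Ptges and less Ptger4 than cells of treated skin, and Slco2a1 was called higher in ΔK14 tumor cells and lay above treated skin in fl/fl tumor cells without a call. The other synthases and Hpgd were not called, and Ptger2 and Ptger3 were too low to be tested there. A gene was called at a Benjamini-Hochberg adjusted p under 0.05 over all genes tested, by edgeR's quasi-likelihood test, and a fold change over 2. In fl/fl cells 3 of 8 tested members were called between tumors and treated skin, against 18.0% of all genes tested, and in ΔK14 cells 4 of 8 against 26.0%. The median log2 fold change of the tested members was 0.74 in fl/fl and 0.42 in ΔK14, against -0.02 and -0.03 over all genes tested. Against mock skin, 1 of 9 tested members was called in fl/fl cells (4.11% of all genes) and 2 of 8 in ΔK14 cells (14.3%).

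**Figure D2:**
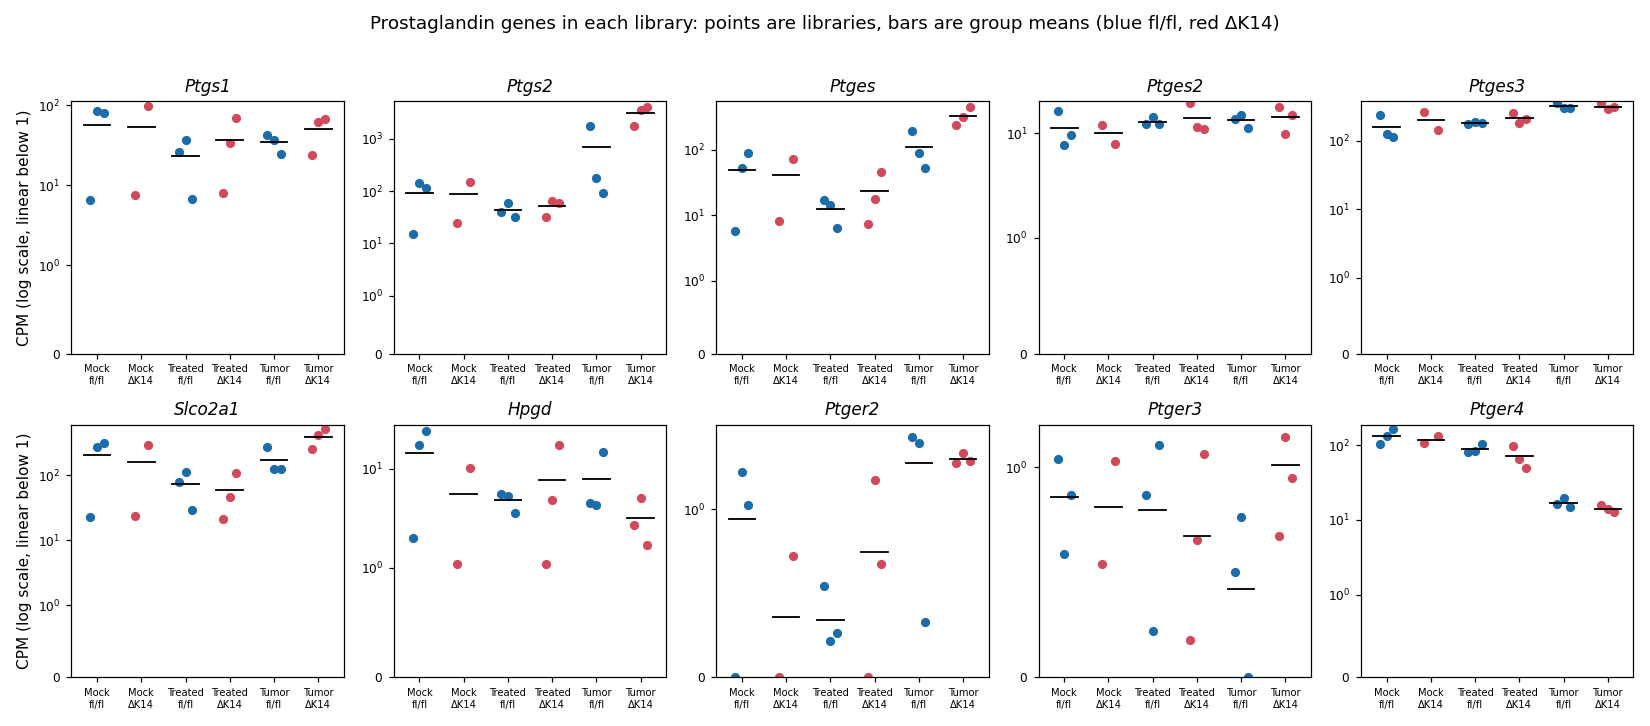
CPM of the 10 genes in each of the 17 libraries (points, blue fl/fl and red ΔK14) with group means (bars), by group, on a scale that is logarithmic above 1 CPM and linear below. Ptgs2 reached 1750 to 3996 CPM in ΔK14 tumors, and Ptger4 was at 12.7 to 19.4 CPM in the 6 tumors against 50.2 CPM or more in skin.

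Ptgs2 (chromosome 1, 150100031 to 150108227, plus strand) encodes cyclooxygenase 2, the inducible enzyme. In mock skin it was at 15.3, 144.4 and 115.9 CPM in fl/fl libraries and at 24.6 and 151.8 CPM in ΔK14 libraries. Treated skin held 39.1, 59.0 and 32.03 CPM in fl/fl and 32.3, 63.8 and 58.0 CPM in ΔK14. Tumors held 1777, 177.0 and 90.1 CPM in fl/fl and 1750, 3597 and 3996 CPM in ΔK14. Every tumor library of a genotype lay above every treated library of that genotype. The share of all genes with such a split was not counted, for Ptgs2 or for the genes below. A single fl/fl tumor, replicate 1, was at the level of the lowest ΔK14 tumor, and the other 2 fl/fl tumors were about an order of magnitude lower. Group means were 43.4 ± 13.98 CPM (SD, n = 3) in treated and 681 ± 950 CPM in fl/fl tumors, and 51.4 ± 16.8 and 3115 ± 1198 CPM in ΔK14.

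The log2 fold change of Ptgs2 between tumors and treated skin was 5.81 in ΔK14 cells (SE 0.36, edgeR adjusted p = 0.000173) and 3.94 in fl/fl cells (SE 0.95, edgeR adjusted p = 0.0317). The fl/fl call was lost without any of the 3 treated libraries, with edgeR adjusted p from 0.0849 to 0.119. Without fl/fl tumor replicate 1 it was smaller but still called, at 1.63 (edgeR adjusted p = 0.00539). Against mock skin, Ptgs2 rose by 5.05 in ΔK14 tumors (SE 0.71, edgeR adjusted p = 0.0199). That call was lost without any of the 3 tumor libraries (edgeR adjusted p 0.0641 to 0.0816). In fl/fl tumors against mock skin the value was 2.85 (SE 1.14, edgeR adjusted p = 0.188), and 0.55 without tumor replicate 1 (edgeR adjusted p = 0.706). With single libraries left out it ran from 0.55 to 3.4. Over 13 alternatives, DESeq2 among them, the adjusted p ran from 0.000467 to 0.706, so the call depended on the procedure.

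Per length of exon sequence, Ptgs2 ranked 2 or 3 of the 10 genes in the skin groups and 1 in both tumor groups by group mean. In skin it had group means of 9.47 to 20.1 CPM per kb, well under Ptges3 at 71.6 to 97.1. In ΔK14 tumors Ptgs2 reached 680 CPM per kb and Ptges3 143, and all 3 libraries had more Ptgs2. In fl/fl tumors the means were 149 and 145 CPM per kb. That order rested on replicate 1, with 388 CPM per kb of Ptgs2, since the other 2 libraries were at 38.6 and 19.7, below Ptges3.

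Ptgs1 (chromosome 2, 36230426 to 36252272, plus strand) encodes cyclooxygenase 1, the constitutive enzyme. Tumors held 42.1, 36.8 and 24.9 CPM in fl/fl and 23.9, 61.9 and 67.1 CPM in ΔK14, within the range of the skin libraries, 6.55 to 99.5 CPM. Log2 fold changes between tumors and treated skin were 0.56 in fl/fl (SE 0.52, edgeR adjusted p = 0.454) and 0.37 in ΔK14 (SE 0.63, edgeR adjusted p = 0.675). Against mock skin they were -0.76 (edgeR adjusted p = 0.568) and -0.16 (edgeR adjusted p = 0.921). The ΔK14 values did not keep their sign when single libraries were left out. An antisense gene, Gm43621, overlaps exons of Ptgs1, and its reads could not be separated without knowing whether counting used strand.

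The ratio of Ptgs2 to Ptgs1 per length, a measure chosen after their levels were seen, was 0.704 to 3.996 in the 11 skin libraries. In ΔK14 tumors it was 62.0, 49.3 and 50.5. The fl/fl tumors were at 35.8, 4.08 and 3.07, so that a single fl/fl tumor stood near the ΔK14 tumors and the other 2 stood at the top of the skin range or within it. The ratio is given as a description without a test.

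**Figure D3:**
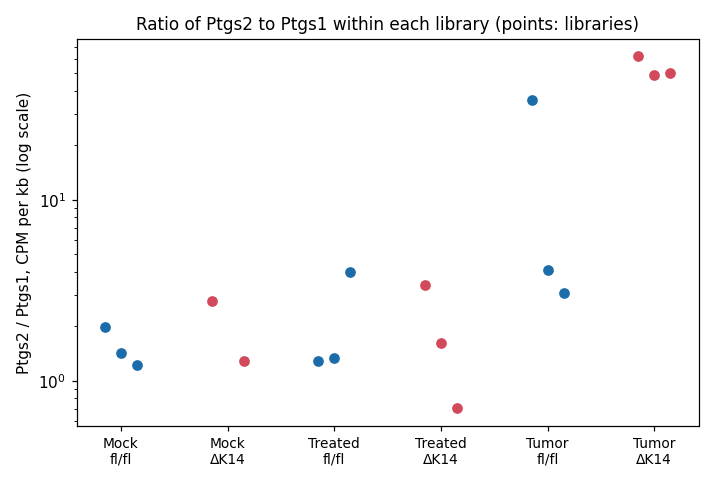
Ratio of Ptgs2 to Ptgs1 (both in CPM per kb, log axis) in each library (points, blue fl/fl and red ΔK14). The 3 ΔK14 tumors lie between 49.3 and 62.0, 1 fl/fl tumor lies at 35.8, and the remaining libraries lie at 4.08 or below.

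Ptges (chromosome 2, 30889471 to 30929863, minus strand) encodes the inducible microsomal prostaglandin E synthase 1, which is often coupled to cyclooxygenase 2. It was at 17.3, 14.5 and 6.54 CPM in treated fl/fl skin and at 192.7, 89.5 and 52.8 CPM in fl/fl tumors. In ΔK14 the treated libraries held 7.36, 17.6 and 46.8 CPM and the tumors 240.6, 314.7 and 452.1 CPM. Tumor and treated libraries did not overlap in either genotype. All 3 ΔK14 tumors also lay above all 3 fl/fl tumors, without a call between them (edgeR adjusted p = 0.246). The share of all genes that split this way was not counted either.

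Ptges rose by 3.08 in fl/fl tumors against treated skin (log2, SE 0.50, edgeR adjusted p = 0.00754) and by 3.73 in ΔK14 tumors (SE 0.53, edgeR adjusted p = 0.00219). Both calls held in every alternative tried, with adjusted p up to 0.0356 and 0.0146. Mock skin held 5.88, 53.0 and 90.1 CPM in fl/fl and 8.12 and 73.5 CPM in ΔK14, a wide spread. Against it the log2 fold change was 1.12 in fl/fl (SE 0.85, edgeR adjusted p = 0.442) and 2.96 in ΔK14 (SE 0.77, edgeR adjusted p = 0.0634). The ΔK14 value was called by DESeq2 (adjusted p = 0.00138, against 18.7% of all genes) and by edgeR's exact test (adjusted p = 0.00771, against 22.4%). Leaving out a mock ΔK14 library left 1 mock library with no spread of its own. The value was then 2.15 without replicate 1 and 5.35 without replicate 2. The fl/fl value was 0.53 without tumor replicate 1 and 0.60 without mock replicate 1.

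Neither of the other 2 synthases was called. Ptges3 (chromosome 10, 128058954 to 128077272, plus strand) encodes the cytosolic synthase, also known as the HSP90 co-chaperone p23. It was at 177 to 255 CPM in treated skin and at 287 to 361 CPM in tumors, without overlap. The 6 tumors also lay above the mock libraries (115 to 260 CPM), a split from all skin libraries seen in 7.16% of the 18252 genes. The log2 fold change was 0.79 in fl/fl tumors against treated skin (SE 0.16, edgeR adjusted p = 0.0137), under the fold needed for a call, and 0.46 in ΔK14 tumors (SE 0.19, edgeR adjusted p = 0.0844). Against mock skin it was 0.98 in fl/fl and 0.55 in ΔK14 (edgeR adjusted p = 0.117 and 0.277). Without mock fl/fl replicate 1 the fl/fl value was 1.41 and called (edgeR adjusted p = 0.0071). A processed copy of Ptges3 is annotated and may share reads with it. Ptges2 (chromosome 2, 32395896 to 32405772, plus strand), the membrane-associated synthase 2, stayed between 7.66 and 19.4 CPM in all 17 libraries and was called in no comparison.

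Slco2a1 (chromosome 9, 102988712 to 103096002, plus strand) encodes the transporter that brings prostaglandins into cells for breakdown. Treated skin held 78.3, 110.5 and 29.5 CPM in fl/fl and 21.4, 46.1 and 108.7 CPM in ΔK14. Tumors held 273.9, 125.1 and 124.9 CPM in fl/fl and 253.8, 412.2 and 513.7 CPM in ΔK14. Tumors lay above treated skin without overlap in both genotypes, by a narrow margin in fl/fl.

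Slco2a1 rose by 2.66 in ΔK14 tumors against treated skin (log2, SE 0.49, edgeR adjusted p = 0.00551), and this call held without each of the libraries. In fl/fl the value was 1.24 (SE 0.48, edgeR adjusted p = 0.0956), which edgeR's exact test called (adjusted p = 0.0452, against 23.3% of all genes). The interaction of genotype and stage was not called for it. Against mock skin the values were 1.22 in ΔK14 (SE 0.87, edgeR adjusted p = 0.378) and -0.25 in fl/fl (SE 0.80, edgeR adjusted p = 0.869), since 2 mock fl/fl libraries and 1 mock ΔK14 library were at 276.9 to 310.9 CPM. Without mock ΔK14 replicate 2, which leaves 1 mock ΔK14 library, the ΔK14 value was 4.06.

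Hpgd (chromosome 8, 56294585 to 56321043, plus strand) encodes 15-hydroxyprostaglandin dehydrogenase, which inactivates prostaglandin E2. It was low throughout, at 1.08 to 23.9 CPM in skin. Tumors held 4.52, 4.28 and 14.8 CPM in fl/fl and 2.68, 5.08 and 1.71 CPM in ΔK14, on 9 to 45 counts. The groups overlapped at every stage. The log2 fold change between tumors and treated skin was 0.69 in fl/fl (SE 0.54, edgeR adjusted p = 0.371) and -1.35 in ΔK14 (SE 0.82, edgeR adjusted p = 0.223). Against mock skin it was -0.89 and -0.86 (edgeR adjusted p = 0.558 and 0.524). The ΔK14 value against treated skin turned on single treated libraries, with -1.84 and a call without replicate 1 (edgeR adjusted p = 0.0348) and -0.04 without replicate 3 (edgeR adjusted p = 0.969).

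Ptger4 (chromosome 15, 5206661 to 5244187, minus strand) encodes EP4, a receptor that raises cyclic AMP, and showed the most stable change of the 10 genes. Mock skin held 102.7, 134.7 and 166.0 CPM in fl/fl and 105.6 and 133.0 CPM in ΔK14. Treated skin held 79.9, 82.5 and 105.0 CPM in fl/fl and 98.9, 65.7 and 50.2 CPM in ΔK14. Tumors held 16.6, 19.4 and 15.1 CPM in fl/fl and 15.7, 13.98 and 12.7 CPM in ΔK14. All 6 tumor libraries lay below all 11 skin libraries, as in 5.28% of the 18252 genes. The fibroblast sum (341 CPM or more in skin and 293 or less in tumors) and the sum of 5 melanocyte markers (41.1 or more and 38.2 or less) split the same way, and their part in the Ptger4 levels was not tested.

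Ptger4 fell in tumors against treated skin with log2 fold changes of -2.41 in fl/fl (SE 0.21, edgeR adjusted p = 0.00117) and -2.44 in ΔK14 (SE 0.27, edgeR adjusted p = 0.000753). Against mock skin they were -3.01 (SE 0.27, edgeR adjusted p = 0.00671) and -3.17 (SE 0.26, edgeR adjusted p = 0.00461). All 4 calls held in every alternative tried, with adjusted p of at most 0.0497. The gene overlaps Ttc33 and Gm15937 on the opposite strand. Ttc33 was at 6.88 to 22.2 CPM and Gm15937 at 1.35 CPM or less, too low to be tested. Ttc33 was lower in fl/fl tumors too, by -0.91 against treated skin (edgeR adjusted p = 0.0431, under the fold needed for a call) and -1.09 against mock skin (edgeR adjusted p = 0.135).

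The other receptors were near the limit of detection. Ptger2 (chromosome 14, 44988195 to 45003820, plus strand), which encodes the EP2 receptor that also raises cyclic AMP, was at 3.01 CPM or less on 0 to 18 counts. Tumors held 3.01, 2.75 and 0.328 CPM in fl/fl and 2.01, 2.36 and 2.09 CPM in ΔK14. Ptger3 (chromosome 3, 157566892 to 157645888, plus strand), which encodes the EP3 receptor that lowers cyclic AMP, was at 1.45 CPM or less on 0 to 10 counts and passed the filter on low counts in no comparison. Ptger2 was tested between tumors of the genotypes, in fl/fl tumors against mock skin and in the interactions, and was not called. In the 11 skin libraries it was at 0 to 1.77 CPM.

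**Figure D4:**
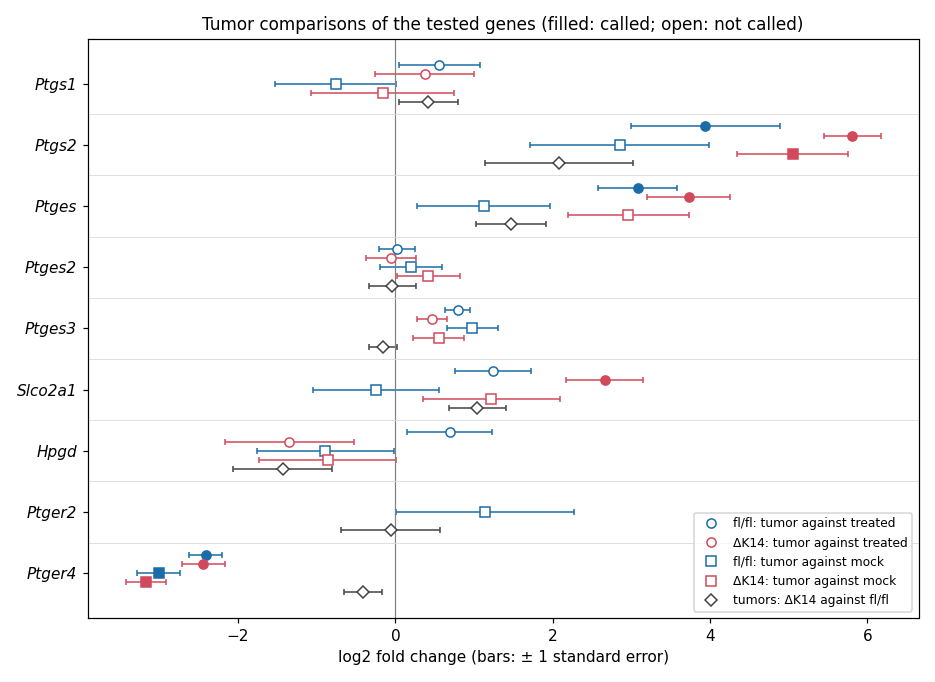
Log2 fold changes (points, bars ± 1 standard error) of the 9 tested genes in fl/fl (blue) and ΔK14 (red) tumors against treated (circles) and mock skin (squares), and between tumors of the genotypes (diamonds), filled where called. Ptgs2, Ptges and Slco2a1 lie to the right and Ptger4 to the left of 0 against treated skin, and no diamond is filled.

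Between genotypes, none of the members was called at any stage. In tumors 0 of 9 tested members were called by edgeR's quasi-likelihood test, against 0.0284% of all genes. There 2 members had an unadjusted p under 0.05, as had 1975 of all 14067 genes tested, and DESeq2 called 1 (Ptges, against 2.60% of all genes) and edgeR's exact test 0 (2.62% of all genes). Without a filter on low counts, Ptgs2, Ptges and Slco2a1 were called, against 4.27% of all genes. The log2 differences of ΔK14 against fl/fl tumors were 2.08 for Ptgs2 (SE 0.94, edgeR adjusted p = 0.386), 1.47 for Ptges (SE 0.44, edgeR adjusted p = 0.246) and 1.04 for Slco2a1 (SE 0.36, edgeR adjusted p = 0.279). For Hpgd the value was -1.43 (SE 0.63, edgeR adjusted p = 0.358). Ptger4 (-0.41), Ptgs1 (0.42) and Ptges3 (-0.16) differed by at most 1.34-fold (edgeR adjusted p = 0.474, 0.649 and 0.738).

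The tumor result turned on fl/fl tumor replicate 1. Without it, Ptgs2 was higher in ΔK14 tumors by 4.42 (log2, edgeR adjusted p = 0.000149), Ptges by 2.12 (edgeR adjusted p = 0.0013) and Slco2a1 by 1.54 (edgeR adjusted p = 0.00332). All 3 were then called, against 16.9% of all genes. That library had the lowest total of all (2808550 counts) and a keratinocyte marker sum of 29210 CPM, against 8451 and 8541 CPM in the other fl/fl tumors and 22180 to 23320 CPM in ΔK14 tumors. The sebocyte marker sum was 220 CPM in it, 3742 and 6852 CPM in the other fl/fl tumors, and 159 to 234 CPM in ΔK14 tumors. Its Zfp36 level was 231 CPM, like that of the other fl/fl tumors at 177 and 242 CPM. In bulk libraries fewer cells of a type and less RNA per cell cannot be told apart, and the part of cell makeup in these differences was not tested.

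Summed leukocyte markers were also higher in ΔK14 than in fl/fl tumors, mostly through S100a9. Their sum was 618 to 971 CPM in ΔK14 tumors and 41.1 to 146 CPM in fl/fl tumors. Of it, S100a9, a neutrophil gene that keratinocytes can also express, held 558 to 893 CPM and 25.5 to 112 CPM. In treated skin the sum was 36.4 to 398 CPM in ΔK14 and 10.2 to 32.8 CPM in fl/fl. There S100a9 was at 24.2 to 221 CPM and 0.392 to 1.54 CPM. In treated ΔK14 replicate 3 the sum was 398 CPM, above the highest S100a9 level of that group, so other listed genes contributed there. The pan-leukocyte gene Ptprc was at 0.447 to 1.45 CPM in ΔK14 tumors and 0 to 1.51 CPM in fl/fl tumors. The rest of the list is not given gene by gene, and its part in the difference between genotypes was not tested. The mast cell sum was 0.895 to 1.63 CPM in ΔK14 tumors and 1.51 to 15.1 CPM in fl/fl tumors.

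In mock skin 0 of 8 tested members were called between genotypes by edgeR's quasi-likelihood test, against 0% of all genes, and log2 differences ran from -1.35 for Hpgd (SE 1.23) to 0.33 for Ptges3 (SE 0.48). In treated skin 0 of 8 were called, against 0.00616% of all genes, with differences from -0.34 for Ptger4 (SE 0.26) to 0.88 for Ptges (SE 0.61). Without treated ΔK14 replicate 3 these were -0.11 and 0.0. DESeq2 and edgeR's exact test also called 0 members in either stage. They called 0.0188% and 0.0126% of all genes in mock skin and 0.222% and 0.271% in treated skin. An unadjusted p under 0.05 was held by 0 members, against 1.59% of all genes in mock skin and 5.55% in treated skin.

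The interaction, whether the change from skin to tumor differed between genotypes, was tested directly. With treated skin as the base, 0 of 9 tested members were called by edgeR's quasi-likelihood test, against 0.0118% of all genes. DESeq2 called 0, against 1.35% of all genes, and 0 had an unadjusted p under 0.05, against 13.2%. The value was 1.90 for Ptgs2 (SE 1.12, edgeR adjusted p = 0.494), 1.44 for Slco2a1 (SE 0.77, edgeR adjusted p = 0.451) and 0.66 for Ptges (SE 0.82, edgeR adjusted p = 0.775). Without fl/fl tumor replicate 1, Ptgs2 alone was called, at 4.23 (edgeR adjusted p = 0.0016), against 7.53% of all genes. Without a filter on low counts Ptgs2, Slco2a1 and Hpgd were called, against 2.76% of all genes. With mock skin as the base 0 of 9 were called (0% of all genes), with 2.17 for Ptgs2, 1.82 for Ptges and 1.47 for Slco2a1 (edgeR adjusted p = 0.82, 0.815 and 0.863). Between treated and mock skin 0 of 9 interactions were called (0% of all genes). In both of these, 0 members were called by DESeq2, against 0.178% and 0% of all genes. An unadjusted p under 0.05 was held by 0 members, against 8.18% and 1.45% of all genes.

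Between treated and mock skin, 0 of 8 tested members were called in fl/fl and 0 of 8 in ΔK14 by edgeR's quasi-likelihood test, each against 0% of all genes. DESeq2 and edgeR's exact test called 0 as well, against 0.711% and 0.626% of all genes in fl/fl and 0.447% and 0.422% in ΔK14. An unadjusted p under 0.05 was held by 1 member in fl/fl (Ptger4, -0.58), against 5.50% of all genes. In ΔK14 it was held by 0, against 4.80%. In fl/fl the members' median was -1.18, against -0.03 over all genes tested. Without mock fl/fl replicate 1, 5 members were lower in treated fl/fl skin and called, against 7.16% of all genes called lower. These were Ptges (-2.46, edgeR adjusted p = 0.00536), Hpgd (-2.08, 0.00274), Slco2a1 (-1.99, 0.0171), Ptgs1 (-1.83, 0.0407) and Ptgs2 (-1.57, 0.00578). With every library kept, their log2 fold changes ran from -1.93 for Ptges (edgeR adjusted p = 0.888) to -1.06 for Ptgs2 (edgeR adjusted p = 0.891). In ΔK14, Slco2a1 was at -1.44 and Ptger4 at -0.74 (edgeR adjusted p = 1 for each).

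That library is among the 4 skin libraries with the lowest keratinocyte marker sums. The sum of 5 keratinocyte markers (Krt5, Krt14, Epcam, Trp63 and Cdh1) was 2985 and 3052 CPM in mock replicate 1 of fl/fl and ΔK14, 3217 CPM in treated ΔK14 replicate 1 and 4823 CPM in treated fl/fl replicate 3. The other 7 skin libraries were at 5899 to 13940 CPM. The same 4 libraries were the lowest of the 11 in 5 members, of 9 that passed the filter on low counts over all groups, and in 7.26% of the 18252 genes that passed it. The cut at 4 follows the split seen in the members and not a break in the marker sums, so this count is a description and not a test. Their Ptgs1 was at 6.55 to 8.07 CPM, against 25.7 CPM or more in the other 7 libraries. Slco2a1 was at 21.4 to 29.5 CPM against 46.1 or more, and Ptges at 5.88 to 8.12 CPM against 14.5 or more. Ptgs2 was at 15.3 to 32.3 CPM against 39.1 or more, and Hpgd at 1.08 to 3.53 CPM against 4.83 or more. Ptger4 did not follow this split, with 98.9 to 105.6 CPM in the 4 libraries and 50.2 to 166.0 CPM in the other 7. Ptges3 was at 183 to 260 CPM in them and at 115 to 210 CPM in the other 7. The part of the keratinocyte share in these levels was not tested.

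**Figure D5:**
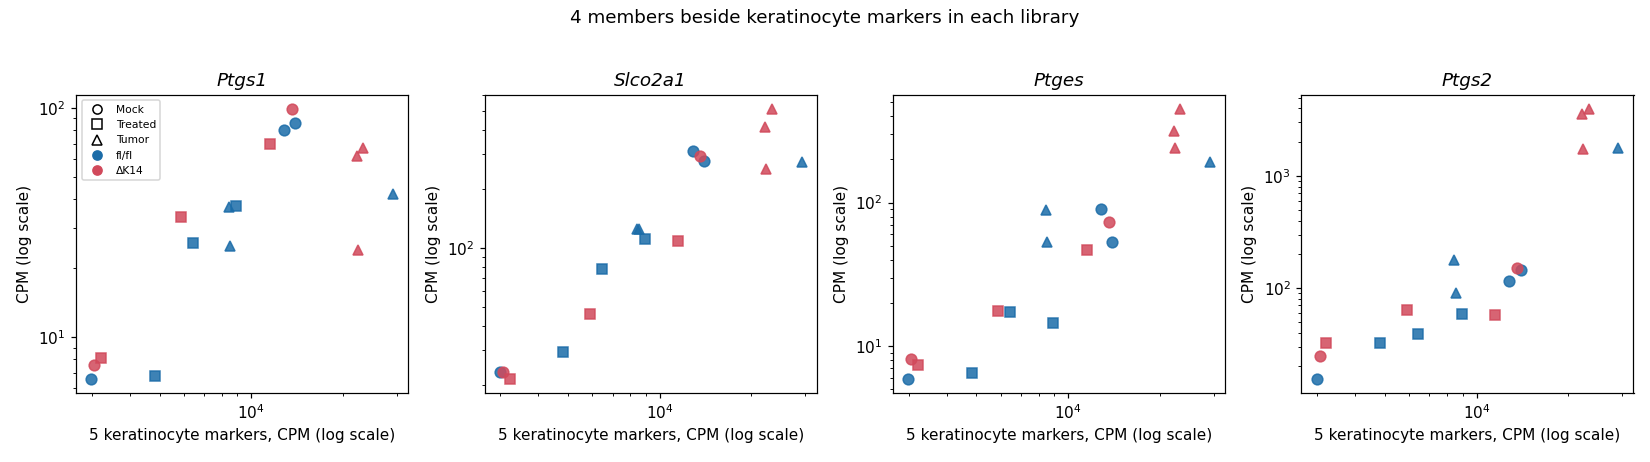
Ptgs1, Slco2a1, Ptges and Ptgs2 (CPM, log axes) against the summed CPM of 5 keratinocyte markers in each library (circles Mock, squares Treated, triangles Tumor, blue fl/fl and red ΔK14). The 4 skin libraries with marker sums of 2985 to 4823 CPM have the lowest levels of all 4 genes, and the 4 libraries highest in Ptgs2, at 1750 CPM or more, are the 3 ΔK14 tumors and fl/fl tumor replicate 1, with marker sums of 22180 CPM or more.

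The genes with the pattern most like each member over the 17 libraries were found by Pearson's r of log2 CPM, given as a description. The libraries share groups and cell makeup, so these values do not measure a relation within a group. Ptgs2 was most like Serpinb6a (r = 0.981) and Actr2 (0.975). Ptges was most like Itga6 (0.983), an integrin of basal keratinocytes, and Rnh1 (0.983). Slco2a1 was most like Anxa2 (0.987), Serpinb2 (0.981) and Cnn2 (0.980). Ptger4 was most like Elmod1 (0.972), Spry1 (0.969), a feedback inhibitor of growth factor signalling, and the clock gene Cry2 (0.968). Ptges3 was most like Uqcrq (0.990), Hspe1 and Slc25a5 (0.989 each), nuclear genes for mitochondrial proteins. Ptgs1 was closest to its antisense neighbour Gm43621 (0.968), and Hpgd to Atp6v0a1 (0.935). The closest genes of Ptges2 (Shmt1, 0.901) and Ptger2 (Ppp1r14c, 0.878) were less alike.

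Upstream of the cyclooxygenases, 14 phospholipase A2 genes were listed under arachidonate release, an activity that was not measured here. Of them 1 of 8 tested was called in fl/fl tumors against treated skin (18.0% of all genes), 1 of 7 against mock skin (4.11%), and in ΔK14 tumors 1 of 8 (26.0%) and 1 of 7 (14.3%). Pla2g4e, a cytosolic phospholipase A2, was at 1.18 to 1.45 CPM in mock and 4.18 to 5.92 CPM in treated fl/fl skin and at 22.1 to 80.3 CPM in fl/fl tumors. Its log2 fold change was 3.42 against treated skin (SE 0.45, edgeR adjusted p = 0.0035) and 5.27 against mock skin (SE 0.51, edgeR adjusted p = 0.00781). In ΔK14 it was at 0.812 and 2.16 CPM in mock skin, 5.74 to 24.9 CPM in treated skin and 22.8 to 61.4 CPM in tumors, and was called against mock skin (4.87, SE 0.68, edgeR adjusted p = 0.0112). The ΔK14 call was lost without tumor replicate 2 (edgeR adjusted p = 0.0629). Against mock skin, the fl/fl call was lost when mock replicate 2 was left out (edgeR adjusted p = 0.0628). Pla2g2f, a secreted phospholipase A2 of the upper epidermis, was at 17.4 to 62.2 CPM in treated ΔK14 skin and fell to 3.36 to 10.5 CPM in ΔK14 tumors (-2.70, SE 0.50, edgeR adjusted p = 0.00482). Pla2g4a, on the same list, was not called in any comparison. Its group means in mock skin, treated skin and tumors were 80.3, 45.5 and 22.2 CPM in fl/fl and 65.5, 31.2 and 45.2 CPM in ΔK14.

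Of 6 genes for other prostanoid synthases, 3 were tested in ΔK14 tumors against treated skin and 2 were called there, against 26.0% of all genes, and 0 were called in any other comparison by edgeR's quasi-likelihood test. Akr1b3, an aldo-keto reductase with prostaglandin F synthase activity, was at 31.5 to 48.8 CPM in treated skin and at 63.4 to 106.6 CPM in tumors (1.14, SE 0.26, edgeR adjusted p = 0.0103). Fam213b, also known as prostamide/prostaglandin F synthase, fell by 1.35 on the log2 scale (SE 0.46, edgeR adjusted p = 0.0441), a call lost in 10 of 13 alternatives. Of 6 other prostanoid receptor genes, 2 were tested in fl/fl tumors against treated skin and 1 was called, against 18.0% of all genes. Ptger1, the EP1 receptor gene, fell in fl/fl tumors against treated skin (-2.07, SE 0.55, edgeR adjusted p = 0.027), from 2.63 to 6.41 CPM down to 0.916 to 1.64 CPM. That call was lost without 4 of the 6 single libraries (edgeR adjusted p up to 0.106). Of 5 genes of export and further breakdown, 0 were called in any comparison by edgeR's quasi-likelihood test. DESeq2 and edgeR's exact test each called 1 of the 5, in fl/fl tumors against treated skin, against 21.0% and 23.3% of all genes. At most 1 had an unadjusted p under 0.05 in a comparison, against 1.45% to 47.4% of all genes.

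Of 8 genes that cyclic AMP is known to induce, all tested, 2 were called in fl/fl tumors against treated skin (18.0% of all genes), 1 against mock skin (4.11%) and 1 in ΔK14 tumors against treated skin (26.0%). Per1, a clock gene, fell in fl/fl tumors against treated skin (-2.10, SE 0.19, edgeR adjusted p = 0.00121) and mock skin (-2.35, SE 0.37, edgeR adjusted p = 0.0254). It was at 22.6 to 24.1 CPM in fl/fl tumors and 60.1 to 163.0 CPM in fl/fl skin. The call against mock skin was lost without 5 of the 6 single libraries (edgeR adjusted p up to 0.127). Nr4a2, a nuclear receptor gene, rose in ΔK14 tumors against treated skin (1.57, SE 0.28, edgeR adjusted p = 0.00412), from 20.1 to 38.1 CPM up to 70.7 to 109.2 CPM. Its relative Nr4a3 rose in fl/fl tumors against treated skin (1.21, SE 0.33, edgeR adjusted p = 0.0364), a call lost without 5 of the 6 single libraries (edgeR adjusted p up to 0.123). Each of these genes moved the same way against treated skin in the other genotype, under the fold needed for a call. The values were -0.77 for Per1 in ΔK14, 0.97 for Nr4a2 in fl/fl and 0.91 for Nr4a3 in ΔK14 (edgeR adjusted p = 0.0447, 0.0493 and 0.0246). Between genotypes, 0 genes of the 5 lists were called at any stage by edgeR's quasi-likelihood test, DESeq2 or edgeR's exact test. These tests called at most 2.62% of all genes at a stage. In tumors, 3 of 7 tested genes of arachidonate release and 3 of 8 of the cyclic AMP list had an unadjusted p under 0.05 between genotypes, against 1975 of all 14067 genes. In treated skin it was 2 of 9 and 2 of 8, against 5.55% of all genes, and in mock skin 0, against 1.59%. In the interaction of tumors and treated skin, DESeq2 called 2 of the 8 cyclic AMP genes, against 1.35% of all genes, and edgeR's quasi-likelihood test 0.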

How the data were processed

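The authors prepared libraries with the Ovation SoLo RNA-Seq kit from sorted epidermal cells and sequenced them on an Illumina HiSeq. They deposited raw counts of reads per gene, without normalization, in a single table of 18 columns. The submitters' processing notes name Trimmomatic 0.36, STAR 2.5.3, HTSeq 0.9.1, DESeq2 and the mm10 build, while the table is named after featureCounts. The annotation release, the use of strand and the removal of duplicate reads are not given in the sources used here.

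The analysis used edgeR 4.0.16 and limma 3.58.1 under R 4.3.3. The study states pairwise edgeR comparisons at an FDR under 0.05. Each comparison was fitted on the whole table with the libraries of its groups, after filterByExpr at its default settings and TMM scaling, with the quasi-likelihood F test (two-sided). Benjamini-Hochberg adjustment ran over all genes tested. Calls required an adjusted p below 0.05 together with more than a 2-fold change. Interactions were contrasts of differences over 4 groups. Standard errors are Wald errors of the fitted log2 coefficients, scaled by the quasi-likelihood dispersion. CPM used TMM-scaled library sizes over the 6 groups, and CPM per kb divided them by the length of all exons of the gene. The filter passed 18252 genes over the 6 groups.

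Mock ΔK14 replicates 2 and 3 were identical and counted once. All 10 members are reported, genes called in 5 lists of related pathway genes are named, and for each member that passed the filter the genes of highest Pearson's r (log2 CPM, prior count 2). A gene of high r is not reported here. Members and lists were chosen with earlier results of these data known. 3′ UTRs, positions and overlaps came from GENCODE M21 (GRCm38). The alternatives were DESeq2 1.42.0, the edgeR exact test, all libraries in 1 fit, RLE in place of TMM scaling, no filter on low counts or a minimum mean count of 10, a replicate block, and libraries left out singly (in mock skin also both replicates 1). The procedures were tested on simulated counts. Figures were drawn with matplotlib 3.10.9.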

Additional observations from a re-analysis of the deposited data

How the results depend on the processing

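Of 851 log2 fold changes recomputed under alternatives, 770 kept their direction and side of the threshold, 33 passed it only under the alternative, 37 lost it and 11 changed sign. Without a low-count filter more members were called. There were 3 between tumors of the genotypes (Ptgs2, Ptges, Slco2a1, against 4.27% of all genes) and 5 in fl/fl tumors against treated skin (12.9%). Against mock skin there were 2 in fl/fl (7.64%) and 4 in ΔK14 tumors (13.1%), and 3 in the interaction of tumors and treated skin (2.76%). Main counts were 0, 3, 1, 2 and 0, against 0.0284%, 18.0%, 4.11%, 14.3% and 0.0118% of all genes. DESeq2 called 1 between tumors (Ptges, adjusted p = 0.0464, against 2.60% of all genes). In fl/fl tumors against mock skin it called 2 (14.3%), as did the single fit (17.6%). With 1 library left out, counts ran from 0 to 3 between tumors, 1 to 3 in fl/fl and 1 to 6 in ΔK14 tumors against mock skin, 0 to 5 in fl/fl treated against mock skin, and 0 to 1 in the interaction. The count of 3 between tumors came without fl/fl tumor replicate 1, where 16.9% of all genes were called. The 5 came without mock fl/fl replicate 1 (15.1%). The 6 came without mock ΔK14 replicate 2, where the lone mock library is assumed to vary like the others. That count is therefore not weighed against all genes. Shares of all genes called in these fits ran from 0% to 16.9% between tumors and 0.181% to 21.0% in fl/fl tumors against mock skin. They ran from 0% to 15.1% in fl/fl treated against mock skin and from 0% to 7.53% in the interaction. With both mock libraries kept, the share in ΔK14 tumors against mock skin ran from 0.709% to 2.75%.

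Signs changed only for values that were not called. Ptges3 between tumors was 0.02 without a filter. Leaving out 1 library gave -0.16 to 0.79 for Ptges3 between mock genotypes, -0.15 to 1.05 for Hpgd and, in ΔK14, -0.09 to 1.17 for Ptgs1 between tumors and treated skin. Against mock skin it gave -0.77 to 0.20 for Slco2a1 in fl/fl tumors, and -1.0 to 2.73 for Ptgs1 and -1.69 to 1.52 for Hpgd in ΔK14 tumors. For Slco2a1 between treated and mock ΔK14 skin it gave -2.32 to 1.36.

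Replicate numbers were not treated as pairs in the main fits. In no direct comparison of 3 pairs did all same-numbered libraries correlate above 0.1 in their deviations. Mock libraries (0.78 and 0.57) and treated and mock ΔK14 libraries (0.57 and 0.14) did so over 2 pairs, as did treated ΔK14 with mock fl/fl libraries (0.66, 0.16 and 0.48), which meet in interactions. The deviations of the 2 mock ΔK14 libraries from their mean are mirror images, so the values over 2 pairs are not independent. With a replicate block, 0.691% of all genes were called between mock genotypes, against 0% in the main fit. Whether same-numbered mock libraries share a batch was not tested. With the replicate block, Ptgs2 in fl/fl tumors against treated skin was 2.68 (edgeR adjusted p = 0.0755), Ptges in ΔK14 tumors against mock skin 3.34 (0.0336), and Slco2a1 in fl/fl (0.04) and Ptgs1 in ΔK14 tumors against mock skin (0.32) changed sign. The exact test was not run for interactions, which it cannot fit. With 2 or 3 libraries a group and under 20 counts, the receptors Ptger2 and Ptger3 are beyond what this depth can compare.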
